A study of Mus musculus with 6 samples.

Results

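The BCL2 family genes Bcl2, Bcl2l1, Bcl2l2, Mcl1, Bak1, Bcl2l11, Bbc3, Pmaip1, Bad and Bmf were followed in mouse pre-B leukaemia cells after deletion of Ppp2r1a, the gene of a structural subunit of the phosphatase PP2A. They were chosen by name, with earlier results of these data known, as 4 survival genes, 1 effector gene and 5 BH3-only genes. All 10 had a probe set annotated to them alone, out of 19733 genes measured. Each had 1 such probe set, so no choice between probe sets was needed. The cells were bone marrow pre-B cells with floxed alleles of Ppp2r1a (Ppp2r1afl/fl), transformed with the BCR-ABL1 oncogene, the fusion kinase of Philadelphia chromosome leukaemia. In the Cre group (3 arrays) they were then transduced with Cre recombinase, which cuts out the floxed gene. The EV group (3 arrays) received an empty vector and kept the gene. Both groups thus carry BCR-ABL1 and the floxed alleles, and no array held Cre in cells without floxed alleles, so effects of Cre itself and of losing Ppp2r1a cannot be told apart. The sources used here state neither the age of the mice, nor the time after transduction, nor whether transduced cells were selected. The titles number the arrays of a group as repeats without saying that cultures or mice were separate. The p-values therefore cover the spread among repeats alone, which may be technical.

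The BCL2 family decides whether the outer mitochondrial membrane is opened in apoptosis. Survival members (BCL2, BCL-XL, BCL-W and MCL1) hold the effectors BAK and BAX in check, and BH3-only proteins such as BIM, PUMA, NOXA, BAD and BMF bind the survival members and so free the effectors. Pre-B cells and BCR-ABL1 leukaemia depend on these proteins, several of which are controlled by phosphorylation. BAD, for example, is held inactive by phosphate groups that PP2A can remove. The arrays measure RNA only. They show neither protein amounts nor phosphorylation, and 1 probe set per gene does not separate splice forms such as the long and short forms of Bcl2l1.

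Of the 10 genes, 1 passed the test, and it fell: Bcl2 was 1.73-fold lower in Cre cells (limma adjusted p = 0.004675). None of the 10 passed as higher in Cre. Over all genes, 3.49% passed at a limma adjusted p below 0.05 (1.35% higher in Cre and 2.14% lower), and a single call among 10 genes is too few to read as more than that share. None of the 5 listed BH3-only genes passed. The 4 survival genes did not move together: Bcl2l1 lay on the opposite side of 0 from Bcl2, Bcl2l2 lay on the side of Bcl2, and the Mcl1 values of the groups overlapped. In bulk cells a lower value may stand for less RNA per cell or for fewer cells that make the RNA, and these cannot be told apart.

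As a check of the labels, Ppp2r1a read 7.12, 6.98 and 6.92 in Cre arrays, against 9.06, 9.05 and 9.06 in EV arrays (log2 levels; limma adjusted p = 1.203e-05). This value covers the whole gene, not the deleted part alone. Of 8 listed pre-B markers, 7 had a probe set of their own, with group means from 10.15 to 12.04 in Cre and 10.39 to 12.04 in EV, and their summed log2 level ran from 77.53 to 77.69 in Cre and from 77.50 to 77.83 in EV. None of these markers passed the test, against 3.49% of all genes. Their changes ran from -0.24 to 0.14, so opposite changes can cancel in the sum. For 3 of the 7 the groups did not overlap (22.5% of all genes), and 2 had an unadjusted limma p below 0.05 (16.1% of all genes). Of 24 measured T cell, myeloid, erythroid, stromal and NK markers, none passed the test, and the highest group mean was 5.75 in both Cre and EV. Array medians lay between 5.22 and 5.27. Arrays correlated across genes with r from 0.9955 to 0.9963 within a group and from 0.9913 to 0.9923 between groups.

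Bcl2 encodes the founding survival protein of the family. It is on chromosome 1, and the upstream sequence of its annotated start is given here because it is the member whose RNA changed, beside that of Bcl2l1, which lay the other way, and of Bcl2l11, a BH3-only gene with a FOXO motif in this window. The sequences are the 250 bases before the outermost annotated start, from RefSeq, build GRCm38.p6, 5′ to 3′ on the gene's strand. The Bcl2 window lies at chr1:106714291-106714540 on the minus strand, that of Bcl2l1 at chr2:152831729-152831978 on the minus strand and that of Bcl2l11 at chr2:128125788-128126037 on the plus strand. Capitals mark matches to the motifs searched.
Bcl2: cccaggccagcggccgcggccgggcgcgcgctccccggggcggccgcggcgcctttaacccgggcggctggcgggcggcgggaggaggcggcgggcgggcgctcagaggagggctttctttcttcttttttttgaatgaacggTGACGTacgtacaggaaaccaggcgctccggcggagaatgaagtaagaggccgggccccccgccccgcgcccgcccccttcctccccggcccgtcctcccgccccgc
Bcl2l1: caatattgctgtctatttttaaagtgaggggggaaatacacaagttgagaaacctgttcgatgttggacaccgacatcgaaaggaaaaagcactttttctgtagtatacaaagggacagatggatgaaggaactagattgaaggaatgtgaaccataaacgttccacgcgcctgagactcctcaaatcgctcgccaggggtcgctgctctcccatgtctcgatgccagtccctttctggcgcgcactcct
Bcl2l11: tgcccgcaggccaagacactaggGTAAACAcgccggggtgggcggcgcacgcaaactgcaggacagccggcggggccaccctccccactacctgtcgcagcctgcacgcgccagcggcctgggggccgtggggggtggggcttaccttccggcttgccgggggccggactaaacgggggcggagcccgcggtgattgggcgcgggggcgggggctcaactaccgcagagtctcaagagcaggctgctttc

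The 5 motifs were searched on both strands in the 17 windows of the 9 members that the promoter table holds: RUNX (TGTGGT), the MYC E-box (CACGTG), FOXO (TGTTTAC), STAT (TTCNNNGAA) and a CREB motif (TGACGT). They were chosen with the results and the sequences in view. The CREB letters were in the single Bcl2 window, 107 bases before the start, and in no window of the other members, and 6.47% of all 32851 windows hold them. FOXO letters were in windows of Bcl2l11 and Bbc3, in the Bcl2l11 window shown at 227 bases before the start, and in 3.17% of all windows. The RUNX letters were in windows of Bak1 and Bmf (14% of all windows), and the E-box in a window of Bbc3 (6.02%). The STAT letters were in no member window, against 7.02% of all windows, and Bcl2l1 had none of the 5 motifs in its 3 windows. A match is a description of the letters, and the windows cover only the start.

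Bcl2 was at log2 levels of 7.92, 7.63 and 7.69 in Cre, against 8.65, 8.47 and 8.49 in EV. Every Cre array lay below every EV array, with a gap between the groups wider than the spread within either. The groups averaged 7.74 ± 0.15 in Cre and 8.54 ± 0.10 in EV (SD, n = 3 each). The change was -0.79 (SE 0.10, 95% interval -1.015 to -0.57; limma adjusted p = 0.004675), which ranks Bcl2 at place 175 of 19733 by p. With 1 array left out in turn, the change stayed between -0.88 and -0.74 and passed in all 6 fits (adjusted p 0.005326 to 0.02499). It passed in 9 of 10 other settings, the exception being statistics without limma's variance moderation (adjusted p = 0.07845).

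**Figure D1:**
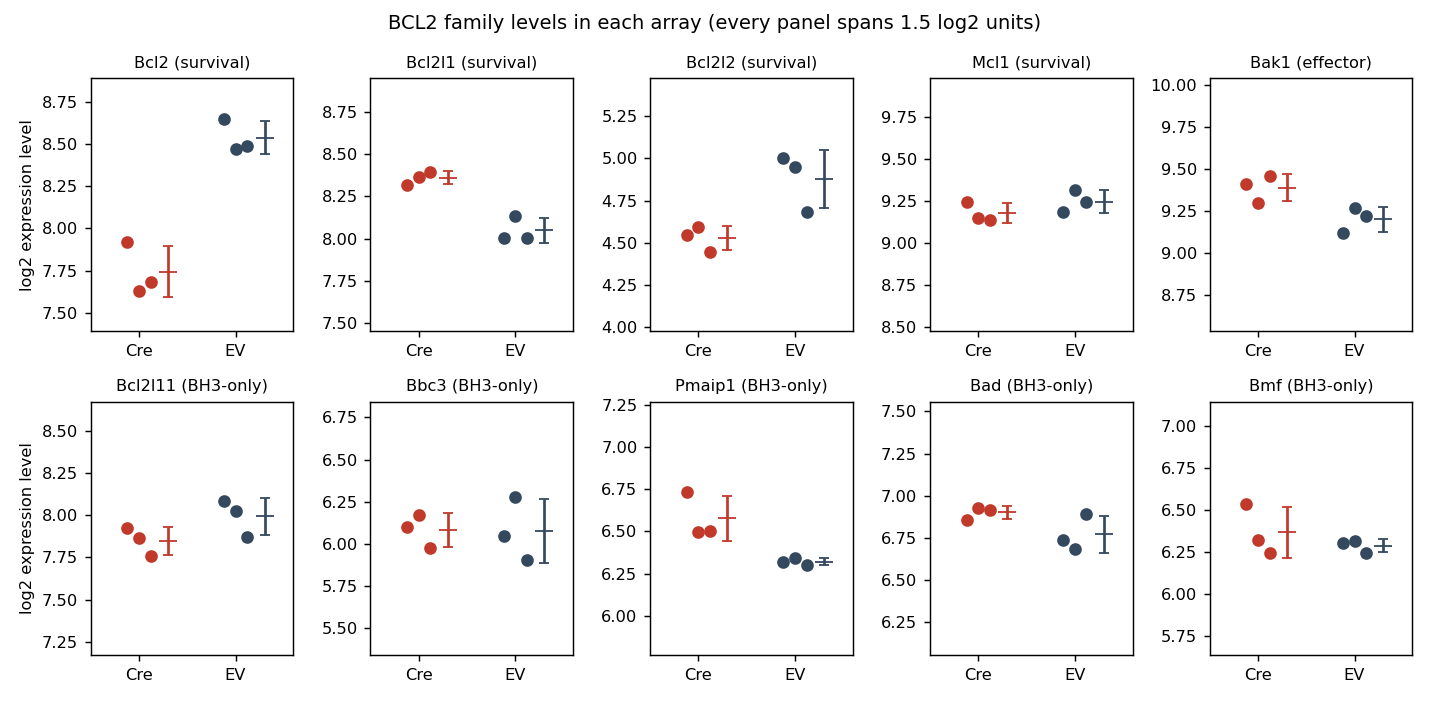
Log2 expression level of each of the 10 BCL2 family genes in the 3 Cre arrays (red) and 3 EV arrays (dark), with mean and SD beside the points; panels have their own axes but cover the same number of log2 units, so that distances compare while heights do not. Bcl2 is the gene whose Cre and EV points lie farthest apart.

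Bcl2l1 encodes BCL-XL, a survival protein that can stand in for BCL2. Its levels were 8.32, 8.37 and 8.39 in Cre, and 8.01, 8.14 and 8.01 in EV. The groups did not overlap, with all Cre arrays higher. The change of 0.31 (SE 0.07, 95% interval 0.15 to 0.47) missed the threshold (limma adjusted p = 0.05327). It did so by little: the gene passed in 5 of the 10 other settings of the analysis (adjusted p from 0.002664 to 0.1245), and in 0 of the 6 fits that leave out 1 array (0.06906 to 0.1591). Its side of 0 was the same in all of those fits.

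Bcl2l2, which encodes BCL-W, lay below the array medians in both groups, so its fold may understate the change. It read 4.54, 4.59 and 4.45 in Cre, and 5.002, 4.95 and 4.68 in EV. The groups did not overlap, yet the third EV array lay close to the Cre values. The change of -0.35 (SE 0.10, 95% interval -0.58 to -0.13) did not pass (limma adjusted p = 0.1145). It passed in 0 of 9 other settings (adjusted p 0.07119 to 0.2619). Of the 6 fits that leave out 1 array, only 1 passed, that without EV replicate 3 (change -0.45, adjusted p = 0.04468). The highest adjusted p of those 6 was 0.2705. Mcl1 encodes MCL1, a short-lived survival protein needed by B cell precursors. It was at 9.24, 9.15 and 9.14 in Cre and at 9.18, 9.32 and 9.24 in EV. These overlap, and the change of -0.07 (SE 0.07, 95% interval -0.23 to 0.09) did not pass (limma adjusted p = 0.6915).

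Bak1, the effector that makes the membrane pores with BAX, read 9.41, 9.30 and 9.46 in Cre, and 9.12, 9.27 and 9.22 in EV. All Cre arrays lay above all EV arrays, with the second of each group the closest pair. The change of 0.19 (SE 0.07, 95% interval 0.02 to 0.36) did not pass (limma adjusted p = 0.2631). It passed in 1 of 10 other settings, with trended, robust variance (adjusted p = 0.04882), and in 0 of 6 fits with 1 array left out. Bax had no probe set of its own in the values used here, so the effectors are represented by Bak1 and by Bok below.

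Among the BH3-only genes, Bcl2l11, which encodes BIM and is a main killer of lymphocytes, was at 7.92, 7.87 and 7.76 in Cre, and 8.08, 8.02 and 7.87 in EV. The values overlap, since the first Cre array lies above the third EV array, and the change of -0.14 (SE 0.08, 95% interval -0.33 to 0.04) did not pass (limma adjusted p = 0.4544). Bbc3 encodes PUMA, a p53 target. It was at 6.10, 6.17 and 5.97 in Cre, and 6.05, 6.28 and 5.90 in EV. The arrays mix completely, and the change of 0.005 (SE 0.11, 95% interval -0.24 to 0.25) had an adjusted p of 0.9923 in limma.

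Pmaip1, which encodes NOXA, a p53 target that binds MCL1, read 6.73, 6.50 and 6.51 in Cre and 6.32, 6.34 and 6.30 in EV. The groups did not overlap, and the first Cre array was the highest of the 6. The change of 0.26 (SE 0.08, 95% interval 0.07 to 0.44) did not pass (limma adjusted p = 0.1585). It was the largest positive value among the BH3-only genes, and it was between 0.18 and 0.30 in the fits with 1 array left out. Pmaip1 passed in 0 of those 6 fits. It passed in 1 of 10 other settings, without the lowest 50% of genes (adjusted p = 0.04893).

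Bad, whose protein PP2A can dephosphorylate, read 6.86, 6.93 and 6.92 in Cre and 6.74, 6.68 and 6.89 in EV. The third EV array lay inside the Cre range, and the change of 0.13 (SE 0.08, 95% interval -0.05 to 0.30) did not pass (limma adjusted p = 0.4715). Bmf, a BH3-only protein tied to the cytoskeleton, read 6.54, 6.32 and 6.24 in Cre and 6.30, 6.32 and 6.24 in EV. Its first Cre array stood above the rest, which lay close together, and the change was 0.08 (SE 0.09, 95% interval -0.12 to 0.28; limma adjusted p = 0.7328). For Bcl2l11, Bbc3, Bad and Bmf the intervals reach at most 0.33 log2 units from 0. That of Pmaip1, which did not pass either, reaches 0.44. These intervals cover the spread among repeats alone, so a larger change could have been missed.

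**Figure D2:**
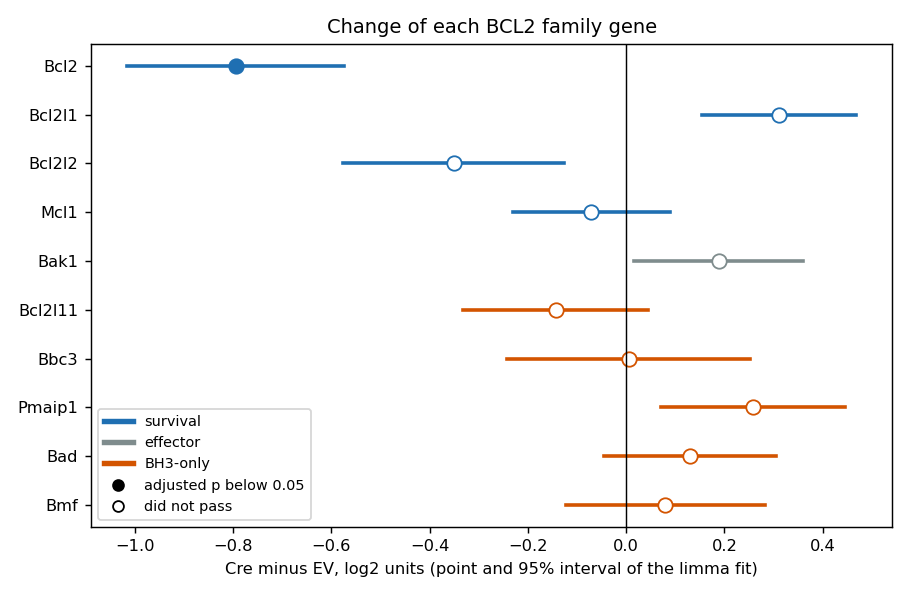
Change of each gene, Cre minus EV, in log2 units with the 95% interval of the limma fit; colour gives the role and a filled point an adjusted p below 0.05. Bcl2 is the filled point, at -0.79, and Bcl2l1 lies on the other side of 0, at 0.31.

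Set side by side, the survival genes had a median change of -0.21, with 3 negative and 1 positive, and the BH3-only genes a median of 0.08, with 4 positive and 1 negative. The median over all genes was -0.003. The survival median lies between Bcl2l2, which is dim, and Mcl1, and it was -0.07 without the lowest 50% of genes, where Bcl2l2 drops out. The BH3-only median was -0.005 without Cre replicate 1, and 1 of its 4 positive values, that of Bbc3 at 0.005, took the other sign in 4 of the 6 fits with an array removed. No test is given for these medians, since they follow from which genes were named. For 5 of the 10 genes the groups did not overlap, namely Bcl2, Bcl2l1, Bcl2l2, Bak1 and Pmaip1, and this held for 22.5% of all genes. The same 5 had an unadjusted p below 0.05, against 16.1% of all genes.

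In each array, the levels of each gene were centred on its mean over the 6 arrays and the median taken over the genes of a role. For the survival genes this was -0.06, -0.09 and -0.17 in Cre, and 0.14, 0.18 and 0.005 in EV. All Cre arrays were below all EV arrays, and the third EV array was near the Cre values. For the BH3-only genes it was 0.02, 0.05 and -0.08 in Cre, and -0.03, -0.01 and -0.08 in EV. Those groups overlap. In every array the survival median lies between the centred values of Bcl2l2, which is dim, and Mcl1, whose groups overlap. Neither gene passed. The side-by-side difference between the roles rests on these genes and is not a shift of the survival genes as a whole. The survival median change of -0.21 lies between the changes of Bcl2l2 and Mcl1, so the size of the Bcl2 change does not enter it.

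**Figure D3:**
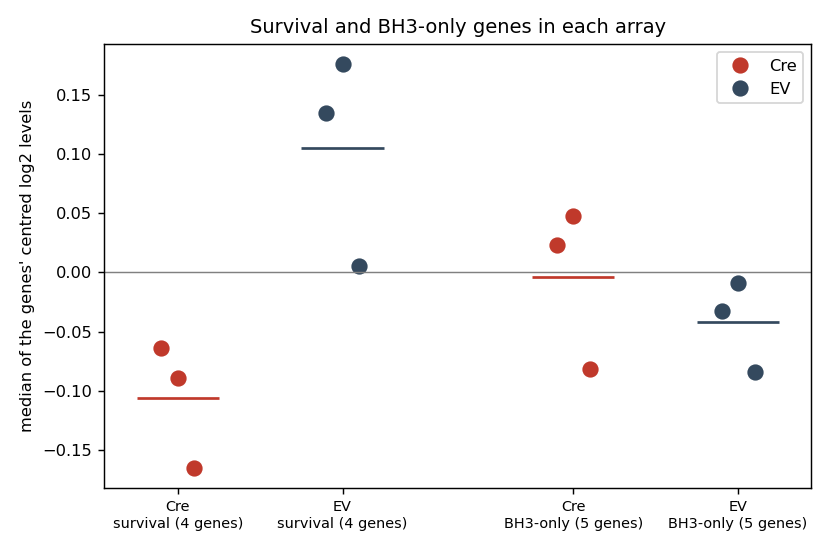
Median over the survival genes (left) and the BH3-only genes (right) of the log2 levels after centring each gene on its mean over 6 arrays; points are arrays, Cre in red and EV in dark, and lines are group means. The survival medians, which lie between Bcl2l2 and Mcl1, are below 0 in every Cre array. They are above 0 in every EV array, by only 0.005 in the third. The BH3-only medians of the groups overlap.

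By a rule of closeness, the Euclidean distance between centred values over the 6 arrays, the genes most like Bcl2 in their pattern were Car2 (0.141), Pfkl (0.148) and Bnip3l (0.149). Car2, a carbonic anhydrase, was at 8.43, 8.22 and 8.38 in Cre and at 9.22, 9.05 and 9.10 in EV. Pfkl, a phosphofructokinase of glycolysis, changed by -0.75 (SE 0.09) and Bnip3l by -0.74 (SE 0.10; limma adjusted p = 0.006439). Bnip3l encodes a mitophagy receptor that is often counted as a BH3-only-like relative of the family. It was in none of the family lists used here, so the counts of BH3-only and further family genes do not include it. The likeness is a match in size and array pattern among 19733 genes, chosen for that match.

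Of 13 further family genes, 9 had a probe set of their own, and 0 of these passed in either direction in limma, against 3.49% of all genes. At an unadjusted p below 0.05 there were 2, Bcl2l14 and Bcl2l15, against 16.1% of all genes, so neither count stands apart from that background. The median over the 9 was 0.07. Bcl2l14 differed by 0.19 (SE 0.07; adjusted p = 0.2119) and Bcl2l15 by 0.21 (SE 0.08; adjusted p = 0.2647), both at levels below the array medians and both non-overlapping. Bik, a BH3-only gene, had the lowest value of the 9, -0.23 (SE 0.13), with Cre arrays at 4.82, 5.03 and 5.36 against 5.30, 5.26 and 5.33 in EV, so the third Cre array lay above the EV arrays. It did not pass, and the value was -0.10 without Cre replicate 1 and -0.37 without Cre replicate 3.

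The BH3-only genes Bid and Hrk had values of 0.07 (SE 0.09) and 0.05 (SE 0.09), and the effector-like Bok -0.03 (SE 0.14). All 3 lie within 1 SE of 0, and each took the other sign when 1 array was left out (Bid without Cre replicate 2, Hrk without EV replicate 2, Bok without EV replicate 3). Bcl2l10 had a value of 0.15 (SE 0.11), and 0.03 without Cre replicate 3. Bcl2l12 had 0.12 (SE 0.07) and Bcl2l13 -0.11 (SE 0.09), the second -0.05 without Cre replicate 1 or EV replicate 3. None of these passed. The survival genes of the Bcl2a1 cluster are near-identical copies that share 3 probe sets, which read from 3.62 to 4.04 in Cre and from 3.41 to 3.96 in EV, below the array medians. They are not assigned to a single copy here.

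Transcription factors that act on BCL2 family genes held 20 entries, of which 18 were measured. Of these, 3 passed as lower in Cre and 0 as higher, against 2.14% lower and 1.35% higher over all genes, and the median change was 0.01. With 1 array left out, 1 to 2 passed. Runx3, a runt-domain factor of lymphocytes, read 5.77, 5.70 and 5.86 in Cre and 7.004, 6.80 and 6.99 in EV. It was 2.23-fold lower in Cre (change -1.15, SE 0.08; limma adjusted p = 0.0003659) and passed in all 6 fits with 1 array left out. Its relative Runx1 fell by 0.30 on the log2 scale (SE 0.06; adjusted p = 0.04322), but passed in 0 of those 6 fits (0.1015 to 0.1376), and its call was also lost with median centring (0.06031), with the repeat number as a block (0.1172) and without variance moderation (0.0587). Myc, whose protein drives growth and can prime cells for death, read 10.21, 10.02 and 10.70 in Cre and 11.29, 11.25 and 11.40 in EV (SE of the change 0.16; limma adjusted p = 0.01665). Its call was lost without Cre replicate 1 or any 1 of the EV replicates (highest of these adjusted p = 0.06619), and without variance moderation (0.1488).

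Factors known for acting on Bcl2l11, Bbc3 and Bcl2l1 were among those that did not pass. Foxo3, an activator of Bcl2l11 and Bbc3, differed by 0.01 (SE 0.06), and Foxo1 by 0.08 (SE 0.06). Stat5a and Stat5b, which act downstream of BCR-ABL1 and raise Bcl2l1, differed by -0.09 (SE 0.08) and -0.13 (SE 0.09). Trp53 and Nfkb1 had no probe set of their own here.

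Kinases, 14-3-3 proteins and ubiquitin enzymes that act on the family's proteins had 26 entries and 21 measured, of which none passed in limma (3.49% of all genes did) and 4 had an unadjusted p below 0.05 (16.1% of all genes). Their median change was 0.06. Ywhab, a 14-3-3 protein of the kind that holds phosphorylated BAD, had the smallest p, with levels of 10.21, 10.14 and 10.22 in Cre and 10.07, 9.94 and 10.01 in EV (change 0.19, SE 0.07; adjusted p = 0.2083). Pim2, a kinase that phosphorylates BAD, was at 6.01, 5.97 and 5.72 in Cre and 6.11, 6.14 and 6.20 in EV (change -0.25, SE 0.09; adjusted p = 0.2208), and its change was -0.16 without Cre replicate 3. The arrays of the groups did not overlap in either.

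Membrane partners and downstream genes had 17 entries and 15 measured. Of these, 1 passed as lower in Cre and 0 as higher, against 2.14% lower and 1.35% higher over all genes. The median change was -0.03. The 1 was Casp6, an executioner caspase, at 4.63, 4.84 and 4.82 in Cre and 5.52, 5.42 and 5.53 in EV. It was 1.66-fold lower in Cre (change -0.73, SE 0.08; limma adjusted p = 0.003103), and passed in all 6 fits that leave out an array, but not without variance moderation (0.06035). Endog, a mitochondrial nuclease, had the next smallest p, a change of -0.34 (SE 0.08; adjusted p = 0.06391). Cycs, which encodes cytochrome c, differed by 0.06 (SE 0.07), and Apaf1, the caspase platform it joins, by 0.07 (SE 0.07).

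**Figure D4:**
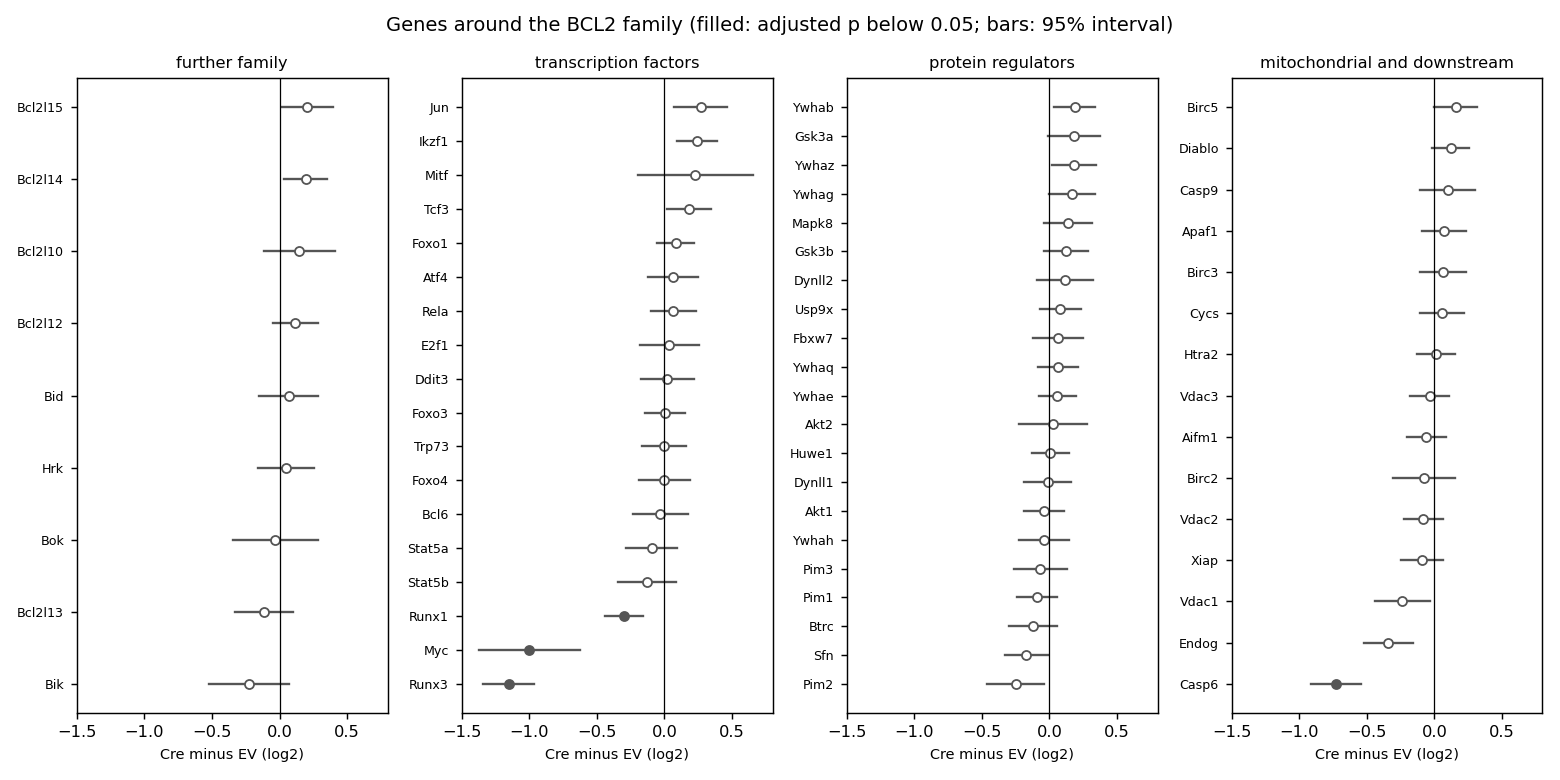
Change of the measured genes of 4 further lists, Cre minus EV in log2 units with 95% intervals, sorted within each list; filled points have a limma adjusted p below 0.05. The filled points are Runx3, Myc and Runx1 among transcription factors and Casp6 among downstream genes, all below 0.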

How the data were processed

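RNA of 3 Cre and 3 EV samples was hybridised to 1-colour Affymetrix arrays. The log2 values deposited by the authors, 1 per probe set and array, were made with RMA, per the submitters' processing notes; the sources used here state neither its version nor the probe annotation behind it. RMA sets the arrays to near-equal distributions, so a shift shared by most genes is invisible, and dim genes have compressed changes. Precision is limited by the number of arrays.

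Of 25006 probe sets, 21467 had 1 gene symbol in the platform annotation, 1521 several and 2018 none; 21386 matched RefSeq (GRCm38.p6) by gene ID. For genes with several, the brightest over 6 arrays was used, leaving 19733. The main fit was limma 3.58.1 (R 4.3.3; lmFit and eBayes, Cre minus EV, no block, no dim filter), with Benjamini-Hochberg over all genes and calls at an adjusted p below 0.05. Plots used matplotlib 3.10.9 and tables pandas 2.3.3 in Python 3.11.15. The fit was tested on simulated data. Members and lists were chosen with earlier results of these data known. Named are Ppp2r1a, the members, all further family genes, genes of other lists that passed (the 2 smallest p where fewer than 2 did) and the 3 profiles nearest to Bcl2. Foxo1, Foxo3, Stat5a, Stat5b, Cycs and Apaf1 were named for their known roles after values were seen. Alternatives were a repeat block, other scalings, dim filters, variance models, array weights, other probe rules and leaving out each array.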

Additional observations from a re-analysis of the deposited data

How the results depend on the processing

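Of 159 results of the 10 genes under other settings, 145 kept their direction and side of the threshold, 8 newly passed, 1 no longer passed and 5 changed sign. The 1 was Bcl2 with unmoderated statistics (adjusted p = 0.07845, 0 members called). Members called numbered 2 with a second quantile normalization, with array weights and without the lowest 25% of genes by level, 3 without the lowest 50% and 3 with trended, robust variance; they were 1 to 2 with 1 array left out. All genes called numbered 689, against 1295 without the lowest 50%, 1558 with trended, robust variance, 148 with unmoderated statistics and 362 to 424 with 1 array left out. Listed transcription factors called were 6 with trended, robust variance, 1 with unmoderated statistics and 1 to 2 with 1 array left out; protein regulators called were 2 with trended, robust variance; membrane and downstream genes called were 2 without the lowest 25% of genes, 4 with trended, robust variance and 0 with unmoderated statistics. The survival median was -0.071 without the lowest 50% of genes, where Bcl2l2 drops out. With 1 array left out the BH3-only median ran from -0.005 (without Cre replicate 1) to 0.121, Bbc3 from -0.082 to 0.107, Bmf from -0.005 to 0.141, Bok from -0.178 to 0.111, Bid from -0.019 to 0.151 and Hrk from -0.046 to 0.091. Apart from the loss of Bcl2l2 from the survival median, the causes of these shifts were not tested.

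Same-numbered Cre and EV arrays had deviations from their group means that correlated at 0.00939, -0.012 and 0.0304. For arrays with different numbers the correlations ran from -0.0277 to 0.0175. The titles do not say whether same-numbered arrays were paired, and 3 arrays per group cannot decide it. With the repeat number as a block 425 genes were called and Bcl2 stayed among them (adjusted p = 0.006679), while no other member passed.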
